A study of Mus musculus with 27 samples.

Results

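Early Somite cells are the cells of clusters 1 and 8 in the deposited annotation. They numbered 903 of the 4637 gastruloid cells with a deposited annotation, or 19.5%, and were chosen here by that cluster number alone. Cluster 1 held 649 of them (71.9%) and cluster 8 held 254 (28.1%). Single-cell transcriptomes were measured in 15 single gastruloids, which are aggregates of mouse embryonic stem cells (mESCs) that elongate in culture and form derivatives of all germ layers. All came from the B6 line, a wild-type hybrid of the 129S1/SvImJ and C57BL/6 strains with no transgene named in the labels, and were collected 120 h after aggregation, following a pulse of the Wnt activator chiron. Condition 1 (gastruloids 1A to 1E) came from mESCs kept in ESLIF, a serum medium with leukaemia inhibitory factor. Condition 5 (5A to 5E) had 48 h of 2i, a medium with inhibitors of GSK3 and MEK, followed by 48 h of ESLIF, and condition 6 (6A to 6E) had 24 h of 2i followed by 24 h of ESLIF. Each gastruloid was sorted alive into 1 plate of 384 wells, so gastruloid and plate cannot be told apart, and the 5 gastruloids of a condition are its replicates. Whether they derive from separate mESC cultures is not stated, so the spread between them is that between single gastruloids. By the plate numbers in the labels, conditions 5 and 1 each fill an unbroken run, and condition 6 lies before and after them. Gastruloids 6A and 6B are on neighbouring plates at the start of this order. Condition and plate order thus go together in part, and effects of plate order were not tested.

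Somites are the paired blocks of paraxial mesoderm that later give rise to vertebrae, skeletal muscle and dermis. They bud off in sequence from the presomitic mesoderm at its anterior end, the differentiation front, where a segmentation clock of Notch, Wnt and FGF targets meets a gradient of retinoic acid from the formed somites. Among the markers associated with early somites, Mesp2 sets the segment boundary, Ripply2 ends Mesp2 expression, Aldh1a2 makes retinoic acid and Meox1 is a homeobox factor of the formed somite. Gene-level values were not analysed here, so the label Early Somite was not checked against these markers. It is used below as the deposited name of clusters 1 and 8. The values at hand for each cell are its total counts, genes, mitochondrial share, cell cycle scores and phase, gastruloid, and position on the UMAP, a map on which cells of similar transcriptome lie close.

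Depth sets the precision of these values. A gastruloid gave 261 to 348 cells, and its median total count was 7109.5 to 12135.5 transcripts per cell. Early Somite cells ranged from 442 to 34406 counts, and 23 of them lay under 1000. Gastruloids 6A and 6B stood apart from the others, since they held 236 of the 254 cells of cluster 8 (92.9%) and 255 of all 903 Early Somite cells (28.2%). Values without them are given beside the results that they move most.

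Early Somite cells were present in all 15 gastruloids. In condition 1 they made up 21.7% of the cells of 1A, 22% of 1B, 17.4% of 1C, 4.30% of 1D and 12.1% of 1E. In condition 5 the shares were 11.7% in 5A, 17.5% in 5B, 20.3% in 5C, 16.4% in 5D and 10.0% in 5E. In condition 6 they were 39.0% in 6A, 44.3% in 6B, 24.9% in 6C, 15.2% in 6D and 16% in 6E. The shares of 6A and 6B were the highest of all and that of 1D the lowest, and the 3 conditions overlapped. The 95% Wilson interval, which covers counting error only, ran from 38.7% to 50.0% for 6B and from 2.53% to 7.22% for 1D, where only 13 cells were Early Somites.

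Condition 1 had a mean share of 15.5% ± 7.43, condition 5 one of 15.2% ± 4.24 and condition 6 one of 27.9% ± 13.3 (SD over 5 gastruloids each). None of the 3 pairs of conditions passed the rank-sum test (exact, two-sided Wilcoxon) after correction for 3 pairs. The difference of 12.4 percentage points between conditions 6 and 1 had an exact p of 0.222 (0.667 after correction). Without 6A and 6B, the mean of condition 6 was 18.7% ± 5.40 (n = 3), less than 1 SD above the means of the other conditions.

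**Figure D1:**
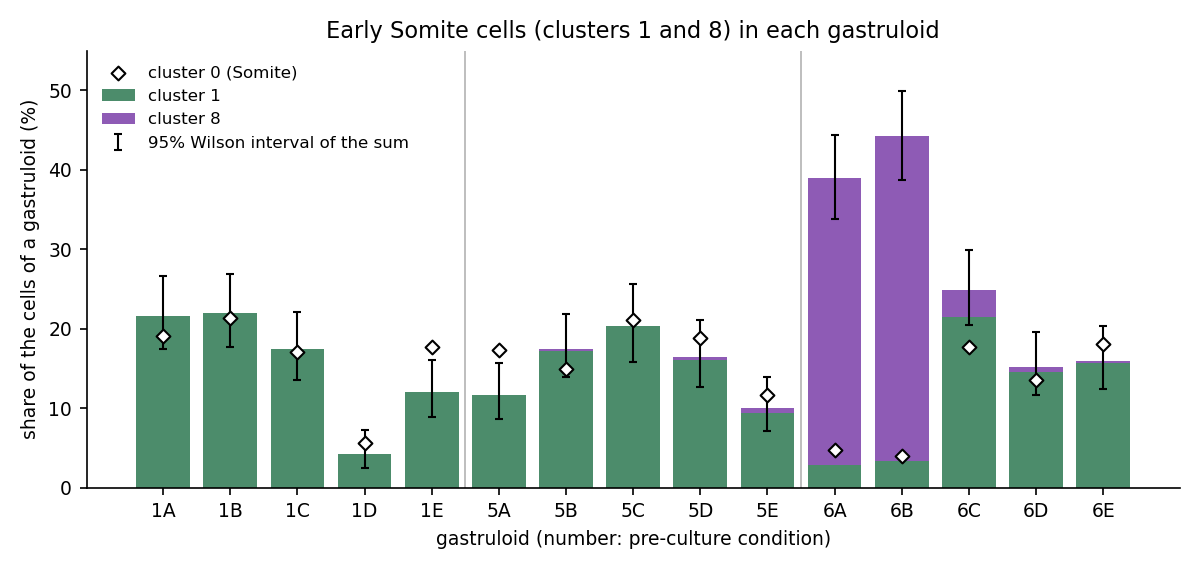
Share of the cells of each gastruloid (percent, vertical axis) that lie in cluster 1 (green) and cluster 8 (purple), with the 95% Wilson interval of their sum as bars and the Somite cluster 0 as open diamonds. Cluster 8 makes up nearly all Early Somite cells of 6A and 6B, where clusters 0 and 1 are small, and is at 0 in all gastruloids of condition 1.

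Early Somites belong to the paraxial mesoderm together with the Somites, the Presomitic Mesoderm and the Differentiation Front of the annotation. Set against these 4 types alone, the comparison no longer depends on how many neural or germ cells a gastruloid made. In condition 1, Early Somites were 36.6% of the paraxial cells of 1A, 32.4% of 1B, 35.6% of 1C, 33.3% of 1D and 23.8% of 1E. In condition 5, they were 17.7% of 5A, 23.1% of 5B, 27.0% of 5C, 22.1% of 5D and 12.9% of 5E. Gastruloid 1D, which had the fewest Early Somites among all cells, was in the middle of its condition on this measure. Its value rests on only 39 paraxial cells, against 146 to 265 in the other gastruloids. Only 5C exceeded the lowest gastruloid of condition 1, and the means were 32.3% ± 5.09 and 20.6% ± 5.44 (SD, n = 5 each).

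The share in condition 5 thus fell by 11.8 percentage points against condition 1 (exact p = 0.0159, 0.0476 after correction for 3 pairs), just inside the threshold of 0.05. The call was lost with a minimum of 1000 counts per cell, where the corrected p was 0.0952, and when any 1 gastruloid other than 1E or 5C was left out. The other paraxial cells included the Somite cluster 5, which held 17.0% ± 14.4 of all cells in condition 5 against 2.49% ± 1.66 in condition 1 (n = 5 each). In 5C cluster 5 held only 1.92%. The Presomitic Mesoderm was larger in condition 5 as well. It held from 10.4% of all cells in 5E to 19.5% in 5D, against 0% in 1D to 11.7% in 1E.

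In condition 6 the paraxial share was 51.7% in 6A and 64.9% in 6B, and 30.2%, 20.5% and 22% in 6C, 6D and 6E. Its mean of 37.9% ± 19.6 exceeded that of condition 1 by 5.51 points, which was not called (exact p = 0.841). Leaving out 6A and 6B, the difference turned to -8.09 points (mean 24.2% ± 5.20, n = 3, exact p = 0.0714), so its direction rested on these gastruloids.

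The 2 clusters of Early Somites were spread very differently over the gastruloids. Cluster 8 was found in 8 of 15 gastruloids, with 250 cells in condition 6, 4 in condition 5 and 0 in condition 1. It made up 92.7% of the Early Somites of 6A and 92.4% of those of 6B, against 13.8% in 6C, 4.17% in 6D and 1.92% in 6E. In condition 5 its share was 1.64% in 5B, 2.04% in 5D and 6.45% in 5E, and no cell was found in 5A or 5C. With the Early Somites of condition 1 numbering 13 to 67 per gastruloid, a count of 0 allows a share of up to 4.48% in 1A and 23.1% in 1D. Gastruloids 6A and 6B held 9 and 10 cells of cluster 1, and every other gastruloid had more of cluster 1 than of cluster 8.

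All 5 gastruloids of condition 6 had cells of cluster 8 and none of condition 1 did. However, 6D and 6E held only 2 and 1 such cells. Their shares of 4.17% and 1.92% are below the limits, 4.48% to 23.1%, that a count of 0 allows in condition 1. Set against single gastruloids of condition 1, the counts of 6D and 6E thus do not show a difference in share. Together the 5 gastruloids of condition 1 held 237 Early Somites, none of them in cluster 8. The difference in the share of cluster 8 among Early Somites was 41.0 percentage points (exact p = 0.00794, 0.0238 after correction), the smallest p that 5 against 5 gastruloids can give. Without 6A and 6B the difference was 6.61 points (exact p = 0.0179, 0.0536 after correction) and the call was lost. This p is below the smallest that untied values of 5 against 3 gastruloids allow, because the 5 values of condition 1 are tied at 0. Conditions 6 and 5 differed by 39.0 points (exact p = 0.0556, 0.167 after correction), and by 4.59 points when both gastruloids were omitted (exact p = 0.232). A cluster that comes mostly from 2 plates may be those plates and not a type, and these cannot be told apart here.

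The cluster that lies next to cluster 1 on the map, cluster 0, is annotated as Somite. It was also small in 6A and 6B, with 15 and 12 cells, against 17 cells in 1D and 36 to 65 in the other gastruloids. When clusters 0, 1 and 8 were counted together, 6A had 43.7% and 6B had 48.3% of their cells in them. Gastruloid 1B had 43.3% and 6C 42.7%, so on this sum 6A was close to other gastruloids and 6B remained the highest. Condition 1 averaged 31.7% ± 13.2 on this sum, condition 5 averaged 32.0% ± 7.30 and condition 6 averaged 39.5% ± 7.88 (SD, n = 5 each). With 6A and 6B omitted, condition 6 averaged 35.2% ± 7.0 (n = 3).

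On the UMAP, Early Somites lay mostly among cells of their own type, beside cluster 0. Of the 15 nearest cells of an Early Somite cell, 87.4% on average were Early Somites, 8.17% were Somites and 4.47% were Differentiation Front cells. Presomitic Mesoderm supplied 0.0148%, and no neighbour came from the Spinal Cord. Averaged over gastruloids, the Differentiation Front supplied 3.42% ± 2.66 in all 15 and 2.52% ± 1.29 in the 13 other than 6A and 6B, and the Somites 9.92% ± 5.28 and 11.1% ± 4.66. Cluster 1 bordered on the Somites, which made up 10.4% of its neighbours, against 2.48% for the Differentiation Front. For cluster 8 as a whole the Differentiation Front supplied 9.55%, the Somites 2.57% and cluster 1 12.5% of the neighbours. These are mostly the values of 6A and 6B, where the Differentiation Front supplied 9.97% and 10.1%. For the 18 cells of cluster 8 in other gastruloids the order was the opposite, with 3.33% from the Differentiation Front, 5.19% from the Somites and 39.3% from cluster 1. Since the map was built from the same genes as the clusters, these shares describe the map and were not tested.

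Cells of 6A and 6B lay together on this map. Among the Early Somite neighbours of their Early Somite cells, 83.3% came from these 2 gastruloids, although these supplied 28.2% of all Early Somites, a ratio of 2.95. In the other 29 pairs of gastruloids of 1 condition this ratio was 1.24 to 1.99. This ratio counts neighbours from a cell's own gastruloid as well as from the other of the pair. It was also high outside the Early Somites. The ratio for 6A and 6B was 5.82 among Somites, 4.57 among PGC-like cells and 3.24 among NMP/Caudal Epiblast cells, and in each of these types it was above that of all other pairs with at least 20 cells. Among Presomitic Mesoderm cells it was 1.96, above the other pairs, and among Differentiation Front cells 1.67, inside their range of 0.615 to 2.21. Of the 71 Somites of 6A and 6B, 56 were from 6A. With 6C, 6D and 6E, the Somites of 6A had ratios of 2.38, 2.37 and 2.10, and those of 6B 1.93, 1.33 and 1.21. Outside the Early Somites, cells of 6A beside those of 6B were not told apart from cells beside their own gastruloid. A high ratio for these 2 plates was therefore seen in several cell types and not only in cluster 8.

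**Figure D2:**
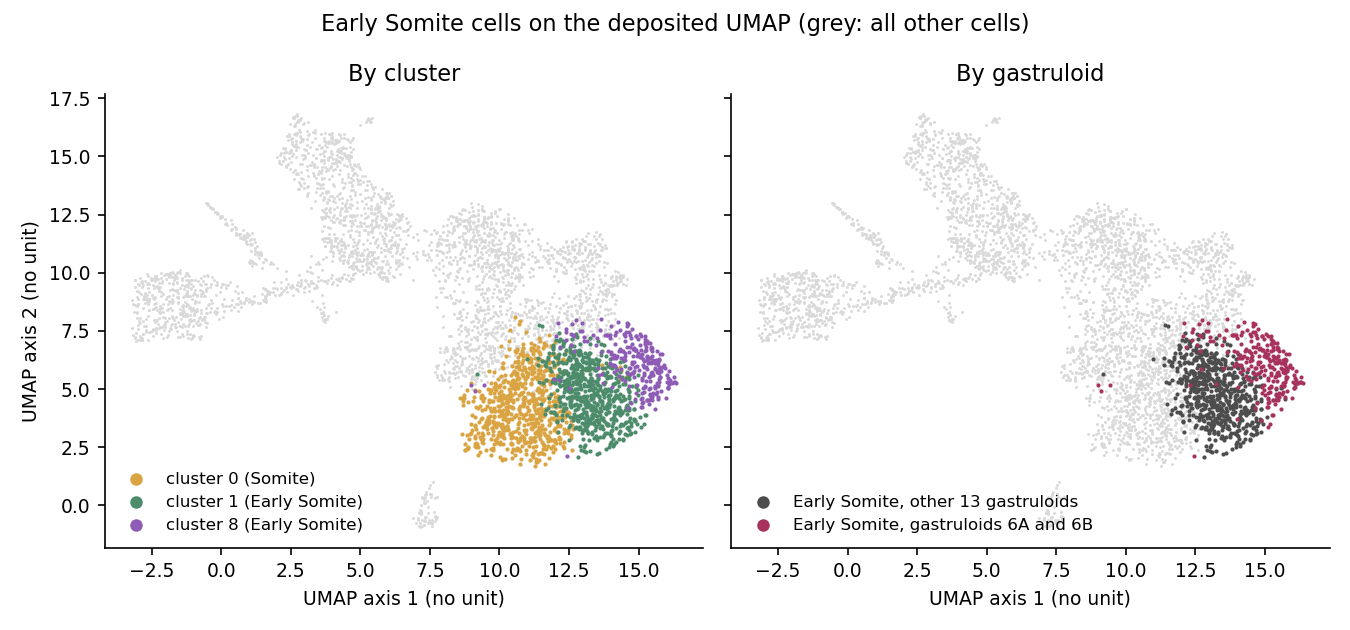
Positions of all 4637 cells on the deposited UMAP (both axes without unit). Left, clusters 0, 1 and 8 in colour. Right, Early Somites of gastruloids 6A and 6B in red and of the other 13 gastruloids in dark grey, which shows the red cells at the outer edge of the Early Somites, where cluster 8 lies.

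The cell cycle phase of Early Somites differed from that of all other cells. The deposited phase is the larger of an S score and a G2M score, which sum up the expression of genes of DNA replication and of mitosis, or G1 where both are below 0. This rule gave the deposited phase of all 4637 cells. Of the Early Somites 76.3% were called S, 16.1% G2M and 7.64% G1, against 51.7%, 42.0% and 6.24% of all other cells. Phase and scores are read from the expression of genes, as are the clusters, so the contrast with other cells is described with no test. Only comparisons between conditions, over gastruloids, were tested for these measures. The calls alone do not show how many cells were cycling.

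Within the same gastruloid, the S share of Early Somites was higher than that of the other cells in 15 of 15 gastruloids. The mean was 80.0% against 51.9%, a difference of 28.1 percentage points ± 12.7 (SD, n = 15) that ranged from 7.52 points in 6A to 56.4 in 1D. The G2M share was lower in 15 of 15, with a mean of 12.5% against 41.9%. The G1 share hardly separated them, being higher in 8 and lower in 7 gastruloids. Early Somites had a G2M score 0.0305 ± 0.00835 below the other cells (15 of 15 gastruloids) and an S score 0.0114 ± 0.00963 above them (13 of 15). A high S score was not particular to Early Somites. Over the pooled cells their mean S score was 0.0441, below that of PGC-like (0.0530) and NMP/Caudal Epiblast cells (0.0452). The mean G2M score was 0.000872 in Early Somites, against 0.0377 and 0.0221 in these 2 types.

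Of the 3 other paraxial types, the contrast was widest against the Somites. Early Somites exceeded them in S share by 49.1 points ± 14.5 (15 of 15 gastruloids, range 22.6 to 75.0). They exceeded the Presomitic Mesoderm, the source of the somites, by 18.0 points ± 12 (13 of 13). Against the Differentiation Front, which has the highest S share of the other 3 types at 66.4% on average, the difference was 12.1 points ± 13.3 and had this sign in 11 of 14 gastruloids. The 3 others were all of condition 6, with S shares of Early Somites and Differentiation Front of 63.7% and 72% in 6A, 67.2% and 73.9% in 6B, and 78.8% and 79.5% in 6E. In condition 6 the Differentiation Front averaged 73.5% ± 4.45 and Early Somites 71.1% ± 6.54 (n = 5), so the higher S share was not seen against this type there.

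Of the Somite clusters, cluster 0 differed most from cluster 1 in phase. Cluster 0, the main Somite cluster, was 77.2% G2M and 22.7% S, while cluster 1 was 11.7% G2M and 79.5% S. Within gastruloids the S share of cluster 1 exceeded that of cluster 0 by 58.2 points ± 10.6, in 15 of 15. Taken as 1 set, clusters 0 and 1 were 50.3% S and 45.4% G2M. All cells that are not Early Somites, a set that includes cluster 0, were 51.7% S and 42.0% G2M. The other Somite cluster, cluster 5, was 54.1% S and 35.0% G2M, so cluster 1 exceeded it in S share as well. The study regressed phase out of the expression values before it clustered the cells, and whether part of the border between clusters 0 and 1 still follows the phase was not tested.

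The contrast was also seen among cells of like depth. Early Somites and Somites were split into 3 equal classes of total counts, with limits of 6677 and 10566. In the lowest class, Early Somites were 15.1% G2M and Somites 47.9%. In the middle class the shares were 15% and 53.8%, and in the highest class 19.4% and 75.4%. These shares pool the cells of all gastruloids, and cells of cluster 8 were many in the highest class. In cluster 1 alone the G2M share was 15.1%, 10.1% and 4.12% from the lowest to the highest class, so the rise with depth in Early Somites was not seen there. Averaged over the 8 gastruloids with at least 5 such cells, Early Somites of the highest class were 10.4% ± 12.7 G2M. Early Somites called S had their S score above the G2M score by a median of 0.0575, and 39 of 689 (5.66%) lay within 0.01 of the border, while 35 of 145 (24.1%) of those called G2M did.

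**Figure D3:**
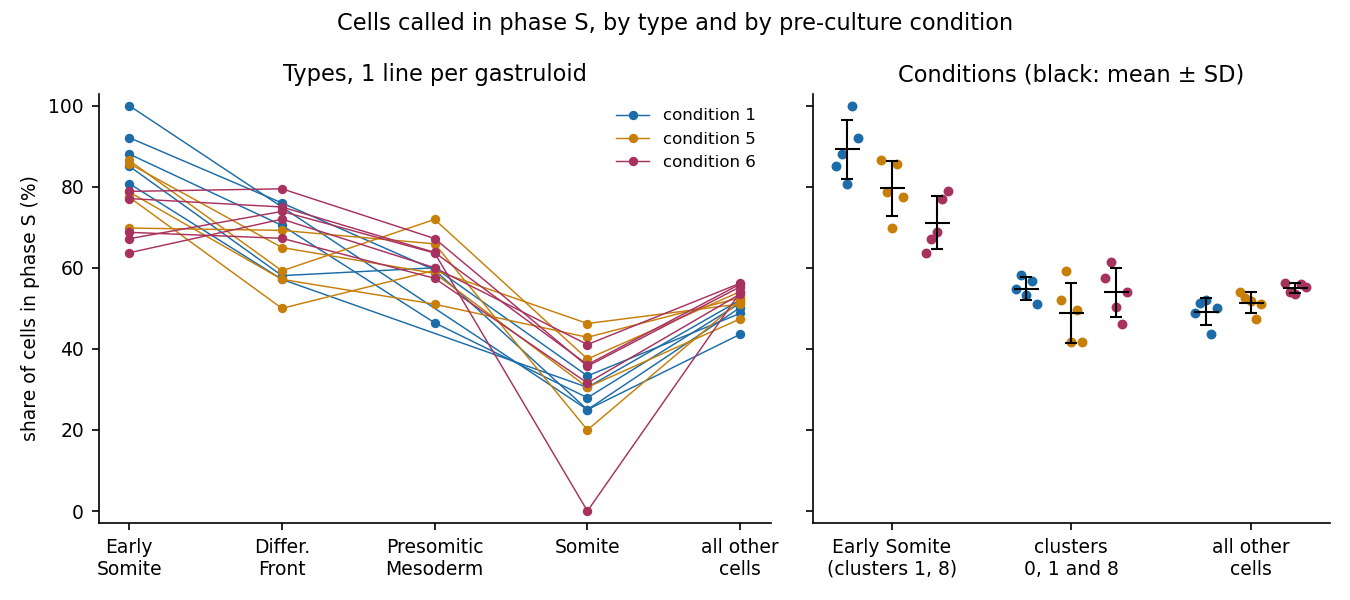
Share of cells called in phase S (percent, vertical axis) in each gastruloid with at least 10 cells of a set. Left, 5 sets with 1 line per gastruloid coloured by condition. Right, Early Somites, clusters 0, 1 and 8 together and all other cells by condition with mean and SD, where the fall from condition 1 to condition 6 is seen in Early Somites but not in the 2 other sets.

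The phase makeup of Early Somites also differed between conditions. In condition 1 the S share was 85.1% in 1A, 88.1% in 1B, 80.8% in 1C, 100% in 1D and 92.1% in 1E. In condition 5 it was 86.5% in 5A, 78.7% in 5B, 69.8% in 5C, 85.7% in 5D and 77.4% in 5E. In condition 6 it was 63.7% in 6A, 67.2% in 6B, 68.8% in 6C, 77.1% in 6D and 78.8% in 6E. Every gastruloid of condition 6 lay below every gastruloid of condition 1, and condition 5 overlapped with both.

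The S share averaged 89.2% ± 7.32 for condition 1, 79.6% ± 6.82 for condition 5 and 71.1% ± 6.54 for condition 6 (SD, n = 5 each). From condition 1 to condition 6 it fell by 18.1 percentage points (exact p = 0.00794, 0.0238 after correction for 3 pairs), a comparison that was added after the values had been seen. The G2M share rose by 14.9 points, from 5.56% ± 4.33 to 20.4% ± 8.01 (exact p = 0.00794, 0.0238 after correction). The other 4 comparisons of these shares were not called, with corrected p from 0.0952 to 0.667. Cluster 8 held most Early Somites of 6A and 6B and cluster 1 those of the other gastruloids. In cluster 1 alone the S share fell by 19.1 points (exact p = 0.0159, 0.0476 after correction, 5 against 4 gastruloids), and the call also held in the cells of the lowest 2 classes of counts (fell by 18.3 points, corrected p = 0.0238). When 6A and 6B were left out, the fall was 14.3 points with no overlap, at the smallest p of 0.0357 that 5 against 3 gastruloids can give without ties (0.107 after correction).

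The other cells of the gastruloids went the opposite way, from an S share of 49.2% ± 3.35 in condition 1 to 55% ± 1.20 in condition 6. The excess of Early Somites over them was 40.04 points ± 10.3 for condition 1, 28.2 ± 7.65 for condition 5 and 16.1 ± 6.38 for condition 6 (SD, n = 5 each), and its difference between conditions 6 and 1 was called (exact p = 0.00794, 0.0238 after correction). With 6A and 6B omitted this difference was -20.1 points (exact p = 0.0357). In clusters 0, 1 and 8 together, however, condition 1 had an S share of 54.8% ± 2.82, condition 5 one of 48.9% ± 7.45 and condition 6 one of 53.9% ± 6.00. The values of conditions 1 and 6 lay between 46.2% and 61.5% there and overlapped. Over all 5 gastruloids the fall was thus not seen when cluster 0 was counted with clusters 1 and 8. In condition 6 this share was highest in 6A and 6B, at 57.6% and 61.5%. In 6C, 6D and 6E it was 50.4%, 46.2% and 54.1%, against 51.1% to 58.3% in condition 1. Clusters 0 and 1 without cluster 8 went from 54.8% ± 2.82 in condition 1 to 39.6% ± 12.7 in condition 6. There 6A and 6B had 25% and 27.3%, on 24 and 22 cells. The part of the division among these clusters in the fall was not tested.

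The mean scores did not pass the test between conditions. The S score of Early Somites averaged 0.0522 ± 0.00938, 0.0432 ± 0.00632 and 0.0419 ± 0.00768 for conditions 1, 5 and 6. The G2M score averaged -0.00363 ± 0.00596, -0.00452 ± 0.00482 and 0.00289 ± 0.00807 in the same order (SD, n = 5 each). The lowest exact p among these 6 comparisons was 0.0952 before correction. The share of Early Somites outside G1 was 94.8% ± 5.24, 91.0% ± 4.17 and 91.6% ± 1.94, with the lowest exact p at 0.222.

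Early Somites had fewer counts than the other cells of their own gastruloid. Their median was 10434.5 counts in 6A against 11335 in the other cells, the closest pair, and 5473.5 against 9007 in 6C, the widest. The medians of Early Somites were below those of the other cells in 15 of 15 gastruloids, with a mean log2 ratio of -0.43 ± 0.17 (SD, n = 15), or 0.743 times. The exact sign-flip permutation test over gastruloids gave p = 6.1e-05, the smallest it can give, and 0.000244 after Benjamini-Hochberg adjustment over 8 tests. Counts and mitochondrial share had been regressed out before clustering, as had phase, and how far they are independent of the clusters was not tested.

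The same was found against each type of the paraxial mesoderm. The log2 ratio was -0.44 ± 0.20 against Somites (lower in 15 of 15 gastruloids), -0.43 ± 0.22 against the Presomitic Mesoderm (12 of 13) and -0.30 ± 0.23 against the Differentiation Front (11 of 14). All 3 passed the permutation test, with adjusted p of 0.000244, 0.000651 and 0.00112. Early Somites detected fewer genes as well, with a mean of the medians of 3773 against 4478 in the other cells (lower in 15 of 15). At equal counts the number of genes differed by only 0.326% from that of the other cells (higher in 11 of 15), so the gap in genes went with that in counts.

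Mitochondrial reads made up a larger share in Early Somites. The median per gastruloid was above that of the other cells in 14 of 15, by 0.573 percentage points ± 0.373 on average (5.50% against 4.93%, permutation p = 0.000122, adjusted 0.000326). The exception was 5B, with 5.00% in Early Somites and 5.04% in the other cells, and the largest difference was 1.52 points in 1D. The difference was 0.693 points ± 0.404 against the Differentiation Front (13 of 14), 0.365 ± 0.239 against the Presomitic Mesoderm (12 of 13) and 0.319 ± 0.299 against Somites (13 of 15). All passed the permutation test, with adjusted p from 0.000488 to 0.0014. When only cells called S were compared, the difference from Somites was 0.242 points and was not called (permutation p = 0.0745). In 6A and 6B the differences from the other cells were small, at 0.169 and 0.222 points, and all 8 calls of counts and mitochondrial share were kept without these gastruloids.

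**Figure D4:**
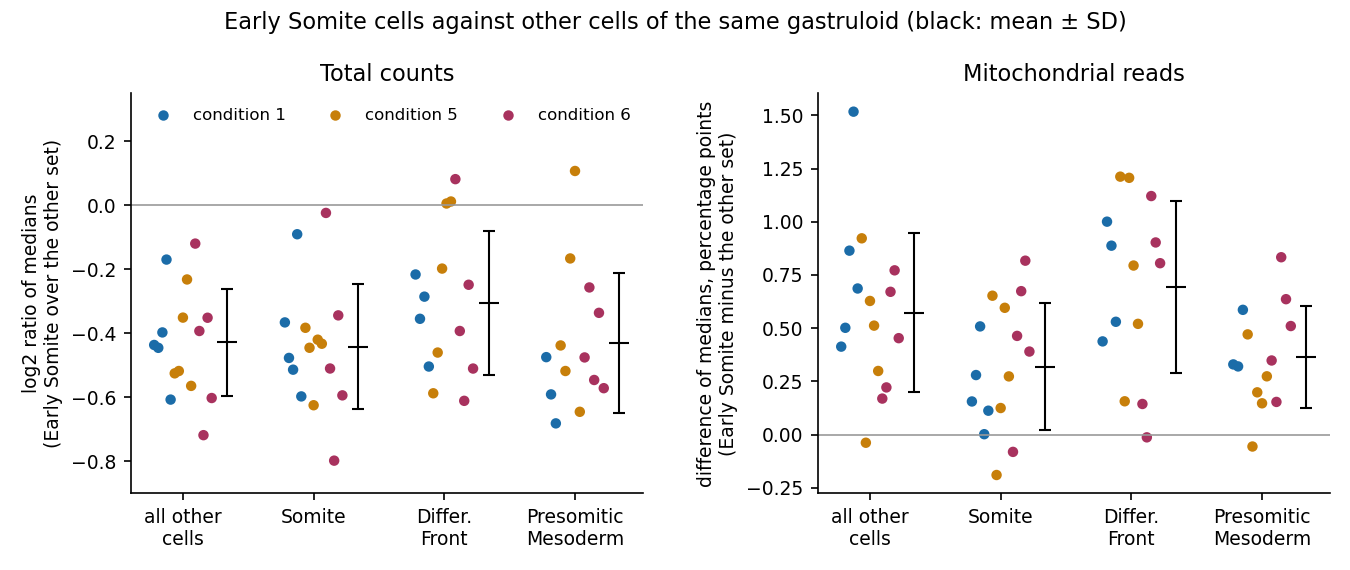
Differences between Early Somites and other cells of the same gastruloid, as the log2 ratio of median total counts (left) and the difference of median mitochondrial share in percentage points (right), against 4 sets on the horizontal axis. Each point is 1 gastruloid coloured by condition, with mean and SD beside it, and most points lie below 0 on the left and above 0 on the right.

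Of the 6 measures compared between conditions (median counts, genes and mitochondrial share, mean S and G2M score, and the share outside G1), the mitochondrial share alone was called for any pair. Its median in Early Somites was 5.56% in 1A, 5.75% in 1B, 5.69% in 1C, 6.95% in 1D and 6.00% in 1E. In condition 5 it was 6.03% in 5A, 5.00% in 5B, 5.55% in 5C, 5.82% in 5D and 5.18% in 5E. In condition 6 it was 4.54% in 6A, 4.68% in 6B, 5.47% in 6C, 5.02% in 6D and 5.34% in 6E. All of condition 6 lay below all of condition 1, with 1D, the gastruloid with 13 Early Somites, at the top.

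The means were 5.99% ± 0.557, 5.52% ± 0.429 and 5.01% ± 0.403 (SD, n = 5 each). Condition 6 was lower than condition 1 by a difference of -0.982 points (exact p = 0.00794, 0.0238 after correction for 3 pairs). Adjusted over all 18 tests of the 6 measures, the same comparison had p = 0.143, and without 6A and 6B the difference was -0.715 points (exact p = 0.0357, 0.107 after correction). The other cells of the gastruloids moved with it. Their median was 5.19% ± 0.227, 5.05% ± 0.167 and 4.55% ± 0.278 for conditions 1, 5 and 6. The difference between Early Somites and the other cells did not pass the test between conditions 6 and 1 (difference -0.339 points, exact p = 0.222, and -0.165 points, exact p = 0.786, with 6A and 6B omitted).

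**Figure D5:**
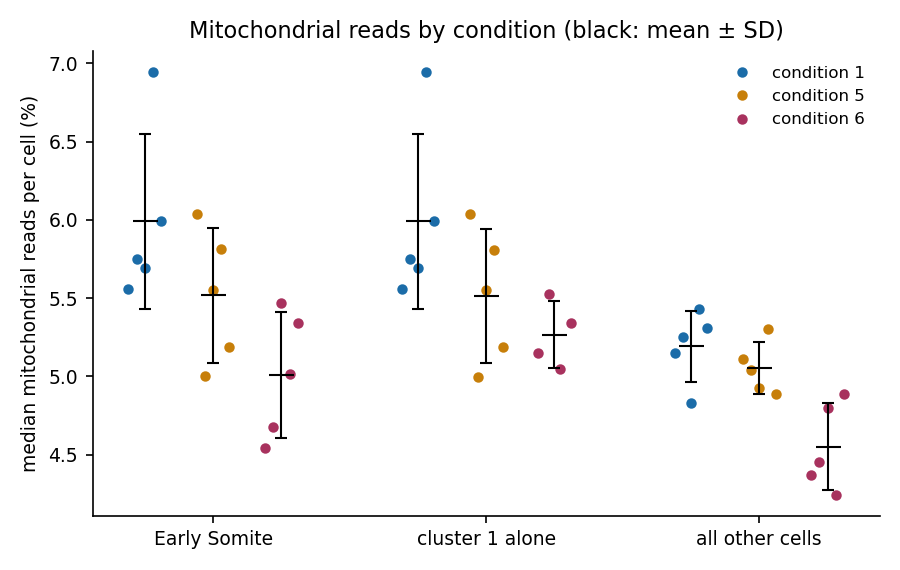
Median mitochondrial share per gastruloid (percent, vertical axis) in Early Somites, in cluster 1 alone and in all other cells, by condition with mean and SD. Condition 6 lies lowest in each set, and in Early Somites its 5 values do not overlap with those of condition 1.

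Total counts of Early Somites did not separate the conditions. The mean of the medians was 6750 ± 775, 7332 ± 1344 and 8034 ± 2472 for conditions 1, 5 and 6, with an exact p of 0.841 for each pair. The spread in condition 6 came from 6A and 6B, whose Early Somites had medians of 10434.5 and 10619 counts, above those of all other gastruloids. Without them, the difference between conditions 6 and 1 turned from 1284 to -377 counts.

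Inside the type, cluster 8 could be set against cluster 1 in the same gastruloid only in 6A, 6B and 6C, which held at least 5 cells of both. With 3 gastruloids the permutation test cannot give a p below 0.25, so no difference could be called. Median counts of cluster 8 were 10475 in 6A, 10811 in 6B and 4646 in 6C, against 6006, 8480 and 5517 in cluster 1. Cluster 8 was thus higher in 6A and 6B and lower in 6C, with a mean log2 ratio of 0.30 ± 0.53. The mitochondrial share of cluster 8 was lower in all 3, at 4.49%, 4.63% and 5.17% against 5.54%, 5.15% and 5.53% (difference -0.643 points ± 0.361, exact permutation p = 0.25).

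Both scores were higher in cluster 8 than in cluster 1 in each of these 3 gastruloids, the S score by 0.0283 ± 0.00513 and the G2M score by 0.0251 ± 0.0139. Cells called G1 were rarer in cluster 8, with 6.09% in 6A, 4.13% in 6B and 0% of 11 cells in 6C, against 33.3%, 20% and 10.1% in cluster 1. The cluster 1 values of 6A and 6B rest on 9 and 10 cells. The 18 cells of cluster 8 outside 6A and 6B differed from the 236 cells inside them. They had a median of 4607.5 counts against 10614, and 94.4% were called S against 66.1%. Of the UMAP neighbours of these 18 cells, 49.6% came from 6A and 6B, while the cells of cluster 8 in 6A and 6B drew 75.9% and 79.8% of their neighbours from these 2 gastruloids.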

How the data were processed

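Values of single gastruloid cells were taken from a deposited table of 4637 cells, whose gastruloid names were matched to the 15 sample labels. For 1 gastruloid of condition 1 the table's plate position has an added letter (C1b for C1), and it was matched because no other plate of that condition fits. No column of other samples was left out. The authors prepared CEL-seq2 libraries, trimmed reads with cutadapt 4.1, mapped them with STAR 2.5.3a to GRCm38 with strain variants masked, and removed duplicates. SAMtools 1.15.1 is named in their processing notes. They kept cells with at least 500 reads, at least 100 genes and at most 20% mitochondrial reads. Some deposited total counts lie below 500, down to 419, and how they relate to the reads of this filter is not stated. They scaled each cell to 500 transcripts, regressed out counts, mitochondrial share and phase, used 40 principal components for the UMAP and set the Leiden resolution to 0.5. Total counts were deposited per cell as whole numbers without normalisation. The deposited mitochondrial share is a fraction made by the authors and was multiplied to percent. The S score and G2M score are deposited by the authors without unit, and their gene lists are not given in the sources used here. The deposited names Somitic Mesoderm, Somitogenesis Wavefront, Tailbud and PGCs are written here as Somite, Differentiation Front, NMP/Caudal Epiblast and PGC-like, as the study's figures name them.

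Total counts per Early Somite cell of 442 to 34406 and 13 to 131 Early Somites per gastruloid limit the precision. Wilson intervals at 95% and the limit of 3 cells for a count of 0 cover counting error only. No gene-level values were used, so cells were neither thinned nor tested for doublets. All plates share 384 well barcodes by design, and no cell name occurs more than once.

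Shares and per-gastruloid medians or means (at least 10 Early Somites) were compared between conditions by rank-sum tests (Wilcoxon, exact, two-sided), with p times 3 for 3 pairs, and called under 0.05. Within-gastruloid differences were tested with exact two-sided sign-flip permutation tests and Benjamini-Hochberg adjustment over 8 tests (2 for the clusters of the type, with at least 5 cells of each). The tests were checked on simulated data. Calculations used Python 3.11.15, numpy 2.4.6, pandas 2.3.3, scipy 1.17.1, scikit-learn 1.9.0 and matplotlib 3.10.9. Types named with values were Early Somites, the other paraxial types and any type that supplies at least 1% of their UMAP neighbours, and PGC-like and NMP/Caudal Epiblast cells were added after their values were seen. Members, tests and lists were chosen with earlier results of these data known. Alternatives were other cell filters, denominators, cluster definitions, summaries, tests and corrections, a block by replicate number, and single gastruloids left out. Columns of other measures and the mESC tables were not used.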

Additional observations from a re-analysis of the deposited data

Results flagged for a closer look

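Among the Early Somites of condition 1, gastruloid 1A lay far from the other 4, with a median of 8122 counts and 4062 genes per cell against 6301.5 to 6585 counts and 3436 to 3553 genes. In condition 5, 20.8% of the Early Somites of 5C were called G2M, against 8.11% to 10.2% in the others. Gastruloid 1D had 5.63% of its cells in the Somite cluster 0, against 17.1% to 21.3% in the other gastruloids of condition 1, and it was also the lowest in Early Somites. A value was marked where its gap to the next made up most of the range of its condition. The search covered the shares and measures of each condition and gave 4 marks. Counts and genes of 1A go together and are not separate marks. About 1 in 20 groups is expected to be marked in this way by chance.

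The difference between Early Somites and other cells of the same gastruloid was itself compared between conditions in 54 tests, of which 4 were called. Against all other cells, the G2M score difference was -0.0363 ± 0.00508 for condition 1 and -0.0228 ± 0.00889 for condition 6 (SD, n = 5 each), a change of 0.0135 (exact p = 0.0159, 0.0476 after correction for 3 pairs). Without 6A and 6B this change was 0.00761 (exact p = 0.0714). Against the Differentiation Front the change in the G2M score difference was 0.0108 (exact p = 0.0159, 0.0476 after correction, 4 against 5 gastruloids), and 0.00649 without 6A and 6B (exact p = 0.0571).

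The S share of Early Somites minus that of all other cells changed by -23.9 percentage points from condition 1 to condition 6, and the G2M share by 22.4 points (exact p = 0.00794 each, 0.0238 after correction). Without 6A and 6B the changes were -20.1 and 16.6 points and the calls were lost. The exact p was 0.0357 each (0.107 after correction), the smallest that 5 against 3 gastruloids can give without ties. No adjustment over the 54 tests was made, and the part of the division of cells among clusters 0, 1 and 8 was not tested.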

How the results depend on the processing

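All 8 within-gastruloid differences kept their direction under every alternative, and their call except the mitochondrial difference from Somites among cells called S (0.242 points). The following changed, and the cause was not tested. The share of all cells in condition 5 minus condition 1, -0.290 points and not called, turned to 0.326 with a minimum of 1000 counts, 0.160 without PGC-like cells, 0.254 for cluster 8 alone, 0.192 as a centred log-ratio and 0.298 with cluster 0 added. In condition 6 minus 1 and minus 5 it turned to -3.90 and -3.36 for cluster 1 alone, and it was called at 16.3 in condition 6 minus 1 for cluster 8 alone. The paraxial share in condition 5 minus 1 lost its call at a minimum of 1000 counts (-11.4). The mitochondrial difference of -0.982 between conditions 6 and 1 lost its call under Benjamini-Hochberg adjustment over 18 tests.

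Without 6A and 6B, an alternative chosen after seeing the data, condition 6 minus 1 turned to -8.09 (paraxial share), -377 (counts) and -158 (genes), and it lost the call at 6.61 (cluster 8 share), -0.715 (mitochondrial), -14.3 (S share) and 9.95 (G2M share). Condition 6 minus 5 turned to -960 (counts), -351 (genes) and -0.606 (share outside G1). Also chosen after seeing the data were cells called S, cluster 0 added to Early Somites and the S and G2M shares. In cluster 1 alone, condition 6 minus 5 turned to -481 counts, -189 genes, -3.48 points outside G1 and -0.00202 in G2M score, and condition 6 minus 1 to -0.00291 in G2M score.

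Leaving out 1 gastruloid at a time gave ranges, for condition 5 minus 1, of -3.09 to 1.33 (share of all cells), -13.9 to -9.86 (paraxial share), -0.0130 to -0.00684 (S score) and -0.00312 to 0.000529 (G2M score). Condition 6 minus 1 ranged from -1.24 to 9.85 in paraxial share, negative only without 6B. Condition 6 minus 5 ranged from -70.1 to 325.9 (genes), -0.00417 to 0.00110 (S score), -0.482 to 1.78 (share outside G1) and 7.12 to 11.4 (G2M share, called only without 5C). The S score in condition 5 minus 1 was called only without 1C.

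With the replicate number as a block, 5 pairs cannot give a p below 0.0625. The calls lost under the replicate block were -11.8 (paraxial share, condition 5 minus 1), and for condition 6 minus 1 41.0 (cluster 8 share), -0.982 (mitochondrial), -18.1 (S share) and 14.9 (G2M share). Same-numbered gastruloids shared only a number: 3 of 15 pairs correlated over 0.1 (r -0.562 to 0.299), and in 2 of 15 a gastruloid correlated best with its own number. Cluster 8 against cluster 1 with 20 cells of each in a gastruloid gave no value, since no gastruloid held as many.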
